A study of Mus musculus with 9 samples.

Results

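The genes described here are 41 interferon-stimulated genes and interferon regulators, taken by name from the 24421 gene symbols counted in whole liver of OGT-deficient mice and control littermates. OGT is the O-GlcNAc transferase, which modifies proteins of the nucleus and cytoplasm with a single sugar. All 9 mice were of the C57BL/6J background and 5 weeks old, and had been without food for 6 h. The 5 control littermates are labelled wildtype (WT), the other 4 mice OGT-deficient, and mice of either sex were used. The sex of each mouse is not given, so a difference in sex between the groups cannot be told apart from that in OGT. How and in which liver cells OGT was deleted, and whether the littermates carried an allele or transgene of the deletion system, is not given in the sources used here. All 41 genes passed the filter on low counts, among 14104 genes that did.

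Type I interferons signal through the receptor chains IFNAR1 and IFNAR2 and the kinases JAK1 and TYK2. Among the factors these activate is STAT2, which joins IRF9 in a complex that binds a promoter element, the interferon-stimulated response element (ISRE). The genes switched on in this way encode proteins that sense viral RNA, block its translation or degrade it, and others that switch the signal off. Interferon itself is induced upstream, when sensors of foreign nucleic acid act through the adaptors MAVS and TRIF on the transcription factors IRF3 and IRF7. In liver, hepatocytes, macrophages and endothelial cells all carry this pathway.

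The ISRE can be read in the promoters of several of these genes. RefSeq promoter windows (GRCm38.p6, 250 bases before to 50 after a gene start) were found for 32 of the 41 genes, 40 windows in all. The core searched on either strand, GAAA followed after any 2 bases by a second GAAA, occurred in a window of 16 of the 32 genes, against 3.99% of 27025 genes with a window and 3.86% of the 10708 of these that were tested. Each stretch below is read 5′ to 3′ on the gene's strand and is shown because it holds a core match, and capitals mark the bases of a match, with TTTC where the core lies on the opposite strand.
Ifit1: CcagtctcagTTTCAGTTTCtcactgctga
Ifit3: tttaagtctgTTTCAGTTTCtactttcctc
Oas3: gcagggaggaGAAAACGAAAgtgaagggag
Gbp2: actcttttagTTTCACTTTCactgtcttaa
Gbp7: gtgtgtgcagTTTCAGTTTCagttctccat
Bst2: ccagGAAAATGAAACTGAAAggctgcagtt
Eif2ak2: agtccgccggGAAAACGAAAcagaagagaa
The whole windows of Isg15, with 3 overlapping matches, and of the neighbouring near-copies Oas1a and Oas1g, with 2 overlapping matches each, follow with matches in capitals.
Isg15, chr4:156200769-156201068, minus strand: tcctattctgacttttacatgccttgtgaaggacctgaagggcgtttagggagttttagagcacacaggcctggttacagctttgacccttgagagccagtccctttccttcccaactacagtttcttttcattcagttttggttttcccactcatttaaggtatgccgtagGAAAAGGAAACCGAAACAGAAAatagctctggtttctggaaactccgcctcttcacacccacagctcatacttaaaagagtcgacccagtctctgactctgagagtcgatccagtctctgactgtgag
Oas1a, chr5:120907476-120907775, minus strand: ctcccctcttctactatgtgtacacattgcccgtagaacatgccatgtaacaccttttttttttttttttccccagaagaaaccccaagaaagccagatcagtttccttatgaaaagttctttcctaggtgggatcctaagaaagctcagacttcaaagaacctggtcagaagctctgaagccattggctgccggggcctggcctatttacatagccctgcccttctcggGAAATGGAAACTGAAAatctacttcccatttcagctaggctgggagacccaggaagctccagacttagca
Oas1g, chr5:120887564-120887863, minus strand: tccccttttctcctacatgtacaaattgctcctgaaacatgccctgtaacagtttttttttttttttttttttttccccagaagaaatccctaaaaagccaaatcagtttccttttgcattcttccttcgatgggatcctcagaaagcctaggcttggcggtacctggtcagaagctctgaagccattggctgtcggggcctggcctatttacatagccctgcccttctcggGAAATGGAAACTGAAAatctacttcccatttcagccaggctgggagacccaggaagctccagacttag
The stretch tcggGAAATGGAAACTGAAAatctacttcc occurs in the windows of both Oas1a and Oas1g. No core match lay in the windows of Oasl2, the member with the largest rise, or of Irf5 and Irf3, those with the largest falls, whose windows are shown for comparison.
Oasl2, chr5:114896684-114896983, plus strand: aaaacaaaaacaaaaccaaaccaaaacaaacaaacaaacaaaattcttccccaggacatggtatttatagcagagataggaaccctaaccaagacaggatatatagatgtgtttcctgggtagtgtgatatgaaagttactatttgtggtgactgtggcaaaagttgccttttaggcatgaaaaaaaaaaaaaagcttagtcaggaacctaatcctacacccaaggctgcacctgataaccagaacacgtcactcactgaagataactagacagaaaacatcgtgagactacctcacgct
Irf5, chr6:29526375-29526674, plus strand: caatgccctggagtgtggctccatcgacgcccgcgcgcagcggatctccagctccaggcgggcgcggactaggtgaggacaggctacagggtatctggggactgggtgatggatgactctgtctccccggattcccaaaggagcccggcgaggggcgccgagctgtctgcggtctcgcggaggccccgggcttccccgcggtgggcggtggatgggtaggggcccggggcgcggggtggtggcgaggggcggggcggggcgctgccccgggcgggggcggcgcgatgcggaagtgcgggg
Irf3, chr7:44997398-44997697, plus strand: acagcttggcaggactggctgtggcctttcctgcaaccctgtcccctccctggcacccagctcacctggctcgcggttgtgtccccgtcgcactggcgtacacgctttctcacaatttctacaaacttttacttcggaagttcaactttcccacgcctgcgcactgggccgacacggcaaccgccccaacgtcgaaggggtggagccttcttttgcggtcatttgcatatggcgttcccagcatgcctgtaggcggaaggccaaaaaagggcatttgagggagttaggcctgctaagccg
A core match was present in 7 of the 14 genes with a window that rose, in 8 of 13 that were not called and in 1 of 5 that fell. The shorter STAT element TTCNNNGAA occurred in a window of 10 of the 32 genes (31.3%), against 9.55% of all genes with a window. The matches are letters in a window and do not show that a factor bound there. Copies of GAAA with 1 base between them, as in windows of Adar and Xaf1, were not counted. A gene without a match may thus hold a variant of the element.

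Libraries held 32337861 to 54130901 counts assigned to genes, and values are given as CPM, a count divided by its library's size in megareads, on scaled library sizes, on which 3 counts correspond to 0.0572 to 0.104 CPM. Ogt itself read 51.1 to 73.1 CPM among WT and 14.3 to 20.6 CPM among OGT-deficient livers. Albumin and the other defining markers of hepatocytes were present throughout, summing to 94600 to 115000 CPM among WT and 48400 to 59700 CPM among OGT-deficient livers. The sum mainly follows Alb, the albumin gene (means 73880 and 33491 CPM). Tat and Apoc3 were not called and Cyp3a11 was called higher. Alignments to more than a single place, which enter no gene count, numbered 0.314 to 1.02 per assigned read for WT libraries and 0.205 to 0.224 for the others (two-sided exact permutation p = 0.0238). In RNA from whole tissue, fewer cells of a type and less RNA per cell cannot be told apart.

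Interferon-stimulated effector genes were mostly modestly higher in OGT-deficient liver, while 5 of the 8 factors that regulate them were lower. Of the 41 genes 19 rose and 5 fell at an adjusted p under 0.05, where 31.6% of all tested genes rose and 29.4% fell. Those that rose were 46.3% and those that fell 12.2% of the members, and the 58.5% called in either direction lay near the 61.1% of all tested genes. The 19 that rose were all among the 33 members other than regulators, and the 5 that fell were all interferon regulatory factors. Of the 33, 0 fell by edgeR, also at an unadjusted p under 0.05, and 0 by DESeq2 or voom, and of the 8 regulators 0 rose by any of these tools, with 2 higher at an unadjusted p under 0.05 in edgeR. The median log2 fold change (called log2 change for single genes) was 0.30 over the 41 genes, 0.38 over the 33 and -0.32 over the 8 regulators, beside 0.02 over all tested genes. Changes were small by the standard of this liver: only Oasl2 rose by a log2 fold change of at least 1 (2.44% of the members, 14.8% of all tested genes), and Irf3 and Irf5 fell by as much (4.88%, against 6.80%). Upper-quartile scaling, which moved the median of all tested genes from 0.02 to 0.14, gave 28 members that rose and 3 that fell, against 38.5% and 23.1% of all tested genes. Relative to the median of all genes, the members' median was 0.28 under both scalings.

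**Figure D1:**
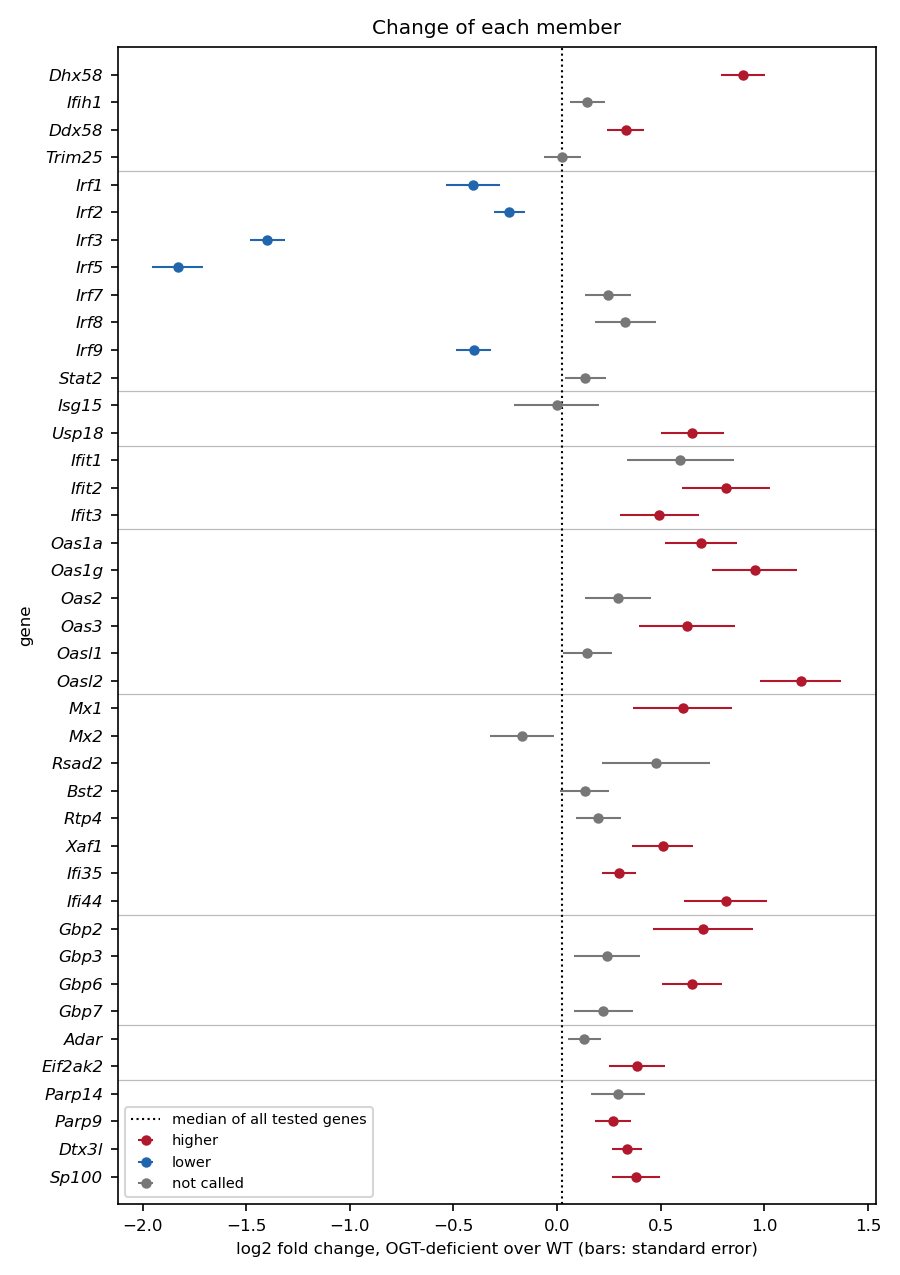
Log2 fold change of each of the 41 genes between OGT-deficient (n = 4) and WT (n = 5) liver, with its standard error, in red where the gene rose, blue where it fell and grey where it did not pass the test; lines separate the groups of genes by role. The 5 falls all lie in the block of regulators, led by Irf5 (-1.83) and Irf3 (-1.40), and Oasl2 (1.18) lies farthest to the right.

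Irf5 and Irf3, both regulators, changed the most of the 41 genes. IRF3 is the factor that MAVS and TRIF signalling activates to induce interferon. Irf3 (chromosome 7, 44997648 to 45002848, plus strand, GRCm38) read 54.3, 57.8, 65.3, 64.7 and 65.8 CPM in the WT livers (replicates 1 to 5), and 21.9, 22.6, 24.9 and 24.1 CPM in the OGT-deficient livers (replicates 1 to 4). The highest OGT-deficient library lay below every WT library, and the mean fell from 61.6 ± 5.22 (SD, n = 5) to 23.4 ± 1.37 CPM (SD, n = 4). On the log2 scale this was a change of -1.40 with SE 0.09 (adjusted p = 6.86e-08). IRF5 is a related factor of macrophages and B cells that acts downstream of Toll-like receptors. Irf5 (chromosome 6, 29526625 to 29541871, plus strand) read 26.0, 32.1, 38.5, 29.0 and 32.4 CPM in the 5 WT livers and 7.90, 8.24, 9.74 and 9.62 CPM in the 4 OGT-deficient livers. Its groups did not overlap either, with means of 31.6 ± 4.64 and 8.88 ± 0.938 CPM (log2 change -1.83 with SE 0.12, adjusted p = 1.32e-07). Exons of other listed genes cover 14.1% of the exonic bases of Irf5, the largest part by Tnpo3, and 2.56% of those of Irf3, by Bcl2l12, so reads there may be missing from either count.

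IRF9 is the DNA-binding partner of STAT2. Irf9 (chromosome 14, 55603571 to 55610030, plus strand) read 44.2, 51.1, 40.1, 44.7 and 43.2 CPM in the 5 WT livers and 34.7, 34.2, 31.2 and 35.1 CPM in the 4 OGT-deficient livers. Every OGT-deficient library again lay below every WT library (log2 change -0.40 with SE 0.08, adjusted p = 0.00103). Irf2, which encodes a factor that mostly represses ISRE promoters, read 59.3, 58.3, 67.3, 61.9 and 57.8 CPM in the 5 WT livers and 51.6, 51.9, 48.5 and 55.8 CPM in the 4 OGT-deficient livers (log2 change -0.23 with SE 0.08, adjusted p = 0.0182). Irf1, an activator that is itself induced by interferon gamma, read 41.9, 48.1, 31.7, 40.3 and 39.1 CPM in the 5 WT livers and 35.4, 25.5, 34.0 and 26.6 CPM in the 4 OGT-deficient livers (log2 change -0.41 with SE 0.13, adjusted p = 0.0166). For Irf2 the groups did not overlap, and for Irf1 they did, through WT 3. Irf2, Irf3, Irf5 and Irf9 were the 4 of the 41 members that lay wholly below WT, a smaller share than the 25.0% of all tested genes. Among the 8 regulators alone, these 4 were a larger share than that. With upper-quartile scaling Irf1 (log2 change -0.28, adjusted p = 0.0941) and Irf2 (-0.11, adjusted p = 0.212) did not pass the test, and Irf2 missed it also without OGT-deficient 3.

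The 3 other regulators did not pass the test. Irf7, the interferon-induced factor that amplifies interferon production, stood at 63.8 ± 4.89 CPM among WT and 75.7 ± 13.3 CPM among OGT-deficient livers (log2 change 0.25, adjusted p = 0.0713). Irf8, a factor of macrophages, dendritic cells and B cells, stood at 15.3 ± 2.79 and 19.2 ± 3.08 CPM (0.33, adjusted p = 0.0681). Stat2 stood at 82.2 ± 6.88 and 90.4 ± 11.7 CPM (0.14, adjusted p = 0.246). All 3 passed it, upward, with upper-quartile scaling.

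**Figure D2:**
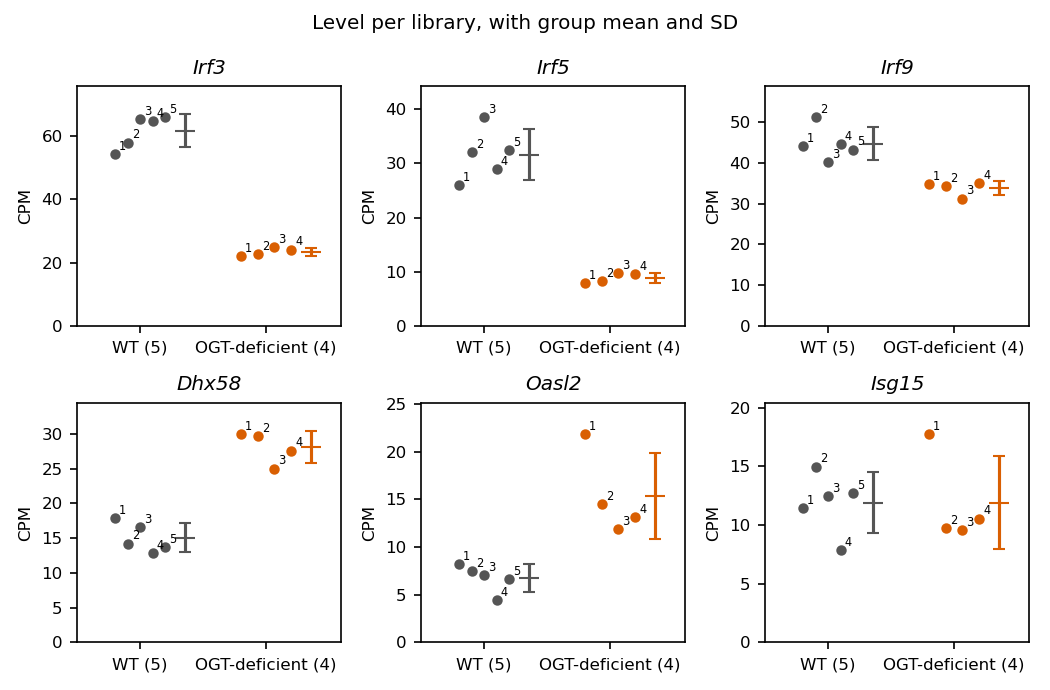
CPM in each library for Irf3, Irf5, Irf9, Dhx58, Oasl2 and Isg15; points are libraries numbered by replicate, and bars are the group mean and SD. Irf3, Irf5 and Irf9 lie wholly below WT, Dhx58 and Oasl2 wholly above, and in Isg15 only OGT-deficient 1 lies above the WT range.

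The cytoplasmic RNA sensors were led by Dhx58, which encodes LGP2, a relative of RIG-I that modulates its signalling. Dhx58 (chromosome 11, 100694884 to 100704271, minus strand) read 17.9, 14.2, 16.6, 12.8 and 13.7 CPM in the 5 WT livers and 30.0, 29.7, 25.0 and 27.6 CPM in the 4 OGT-deficient livers. The groups lay apart, with a log2 change of 0.90 with SE 0.11 (adjusted p = 1.42e-05), the smallest p among the 19 genes that rose. Ddx58, the gene of RIG-I itself, rose from 32.8 ± 2.69 to 41.2 ± 4.08 CPM (log2 change 0.33, adjusted p = 0.00667). Ifih1, which encodes the sensor MDA5, did not pass the test at 49.96 ± 1.98 and 55.3 ± 6.13 CPM (0.15, adjusted p = 0.142). Neither did Trim25, a ubiquitin ligase of the RIG-I pathway, at 174.5 ± 15.5 and 177.6 ± 15.3 CPM (0.03, adjusted p = 0.821).

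The oligoadenylate synthetase family, which makes the second messenger that activates RNase L, held the largest rises. Oasl2, a catalytically active relative in mouse, read 8.25, 7.50, 7.04, 4.40 and 6.65 CPM in the 5 WT livers and 21.9, 14.5, 11.9 and 13.1 CPM in the 4 OGT-deficient livers. All 4 OGT-deficient libraries lay above WT, OGT-deficient 1 the farthest (chromosome 5, 114896936 to 114912234, plus strand; log2 change 1.18, SE 0.20, adjusted p = 0.000224). Oas1g rose from 1.66 ± 0.406 to 3.24 ± 0.510 CPM (log2 change 0.95 with SE 0.21, adjusted p = 0.00145) and Oas1a from 5.93 ± 1.41 to 9.66 ± 1.29 CPM (0.70, adjusted p = 0.00403). Of the 50-base stretches of Oas1a 57.6% occur in another listed gene, above all Oas1g, and of those of Oas1g 54.7%, so each value is uncertain, and reads that fit more than a single place were commoner in WT libraries. Oas3 rose from 2.83 ± 0.898 to 4.41 ± 0.879 CPM (0.63, adjusted p = 0.0324). Oas2 (4.26 ± 0.701 and 5.22 ± 0.791 CPM, adjusted p = 0.128) and Oasl1, which acts on translation of Irf7 in mouse (14.6 ± 0.647 and 16.2 ± 3.25 CPM, adjusted p = 0.305), did not pass the test.

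IFIT proteins bind foreign RNA and block its translation. Ifit2 read 12.4, 11.8, 8.67, 7.35 and 8.17 CPM in the 5 WT livers and 24.5, 17.1, 15.5 and 11.2 CPM in the 4 OGT-deficient livers (log2 change 0.81 with SE 0.21, adjusted p = 0.00499). Ifit3 read 19.3, 20.7, 15.1, 12.1 and 20.4 CPM in the 5 WT livers and 35.8, 21.9, 19.7 and 21.4 CPM in the 4 OGT-deficient livers (0.49, SE 0.19, adjusted p = 0.0399), and 51.2% of its 50-base stretches occur in another listed gene, above all Ifit3b, so it is uncertain. Both groups of values overlapped with WT, and OGT-deficient 1 was the highest library for each. Ifit1 was also highest there, at 31.7 CPM beside 13.7 to 17.2 CPM in the other OGT-deficient libraries and 8.15 to 17.4 CPM in WT, and did not pass the test (0.59, adjusted p = 0.0628), although DESeq2 called it (adjusted p = 0.0332). The 3 genes lie on chromosome 19 between 34550694 and 34650009.

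ISG15 is a ubiquitin-like modifier, and USP18 the protease that removes it and that also silences IFNAR2. Usp18 (chromosome 6, 121245906 to 121270917, plus strand) read 24.5, 26.7, 18.1, 15.7 and 21.5 CPM in the 5 WT livers and 38.0, 33.3, 26.6 and 36.3 CPM in the 4 OGT-deficient livers. It rose by a log2 change of 0.65 with SE 0.15 (adjusted p = 0.00239), with a slight overlap between OGT-deficient 3 and WT 2. Isg15 read 11.5, 15.0, 12.5, 7.87 and 12.7 CPM in the 5 WT livers and 17.8, 9.73, 9.55 and 10.6 CPM in the 4 OGT-deficient livers. The group means were equal at 11.9 ± 2.59 and 11.9 ± 3.94 CPM (adjusted p = 0.991), with the single value above WT in OGT-deficient 1.

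Other antiviral effectors were called in part. Ifi44, which encodes a poorly understood interferon-induced protein, read 6.05, 5.82, 5.16, 4.30 and 5.19 CPM in the 5 WT livers and 14.5, 7.43, 7.16 and 8.30 CPM in the 4 OGT-deficient livers, without overlap (log2 change 0.81 with SE 0.20, adjusted p = 0.00363). Xaf1, a pro-apoptotic gene, rose from 5.76 ± 0.474 to 8.19 ± 1.76 CPM and Ifi35 from 28.9 ± 2.64 to 35.5 ± 1.96 CPM (log2 fold changes 0.51 and 0.30). Mx1, a dynamin-like GTPase gene, rose from 2.58 ± 0.308 to 3.92 ± 1.68 CPM (0.61, adjusted p = 0.0429), with 6.34 CPM in OGT-deficient 1 and 2.67 to 3.72 CPM in the others. The test was not passed by Rsad2, which encodes viperin (14.6 ± 5.33 and 20.3 ± 6.43 CPM, adjusted p = 0.131), by the membrane tether Bst2 (198.8 ± 31.6 and 217.8 ± 21.4 CPM, adjusted p = 0.357), by Rtp4 (23.4 ± 3.08 and 26.9 ± 3.02 CPM, adjusted p = 0.134) or by Mx2 (7.20 ± 1.02 and 6.39 ± 1.24 CPM, adjusted p = 0.356). Mx2 is annotated as a polymorphic pseudogene. Per kilobase of exon, Bst2 had the highest level of the 41 genes in WT, at 220.1 CPM per kb, followed by Trim25 at 30.3, and Oas3 the lowest at 0.400.

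Guanylate-binding proteins are GTPases that attack the vacuoles of intracellular pathogens and respond mainly to interferon gamma. Gbp6 read 19.6, 22.7, 18.1, 13.7 and 19.5 CPM in the 5 WT livers and 37.0, 24.3, 29.3 and 27.1 CPM in the 4 OGT-deficient livers, without overlap (log2 change 0.65 with SE 0.14, adjusted p = 0.00178), but 48.7% of its 50-base stretches occur in another listed gene, above all Gbp10, and the value is uncertain. Gbp2 rose from 5.87 ± 1.77 to 9.53 ± 3.29 CPM (0.70, adjusted p = 0.0224). Gbp3 (10.4 ± 1.12 and 12.3 ± 3.41 CPM, adjusted p = 0.211) and Gbp7 (24.2 ± 1.80 and 28.2 ± 7.51 CPM, adjusted p = 0.197) did not pass the test, and for both OGT-deficient 1 was the highest library.

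The last effectors act on double-stranded RNA or in the nucleus. Eif2ak2, the gene of the translation-blocking kinase PKR, rose from 22.6 ± 1.44 to 29.5 ± 7.53 CPM (log2 change 0.39, adjusted p = 0.0259). Adar, which encodes an RNA-editing deaminase and has 20.1% of its 50-base stretches in another gene (above all Chrnb2) and is uncertain, stood at 36.5 ± 2.15 and 40.01 ± 2.97 CPM (0.13, adjusted p = 0.163). The ADP-ribosyltransferase gene Parp9 rose from 66.0 ± 7.005 to 79.6 ± 3.14 CPM (0.27, adjusted p = 0.0158) and Dtx3l, the gene of its ubiquitin ligase partner, from 56.8 ± 3.38 to 71.8 ± 3.58 CPM (0.34, adjusted p = 0.00149). The pair is read in opposite directions on chromosome 16, with annotated starts 681 bases apart and 9.40% of the exonic bases of Parp9 covered by other listed genes, Dtx3l above all. Sp100, a nuclear body gene, rose from 8.53 ± 0.616 to 11.1 ± 1.65 CPM (0.38, adjusted p = 0.0124). Parp14 stood at 56.8 ± 6.92 and 69.7 ± 13.7 CPM (0.30, adjusted p = 0.0653). Across all 41 genes, 12 lay wholly above WT (29.3%), as did 26.2% of all tested genes. All 12 were among the 33 members other than regulators (36.4%).

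**Figure D3:**
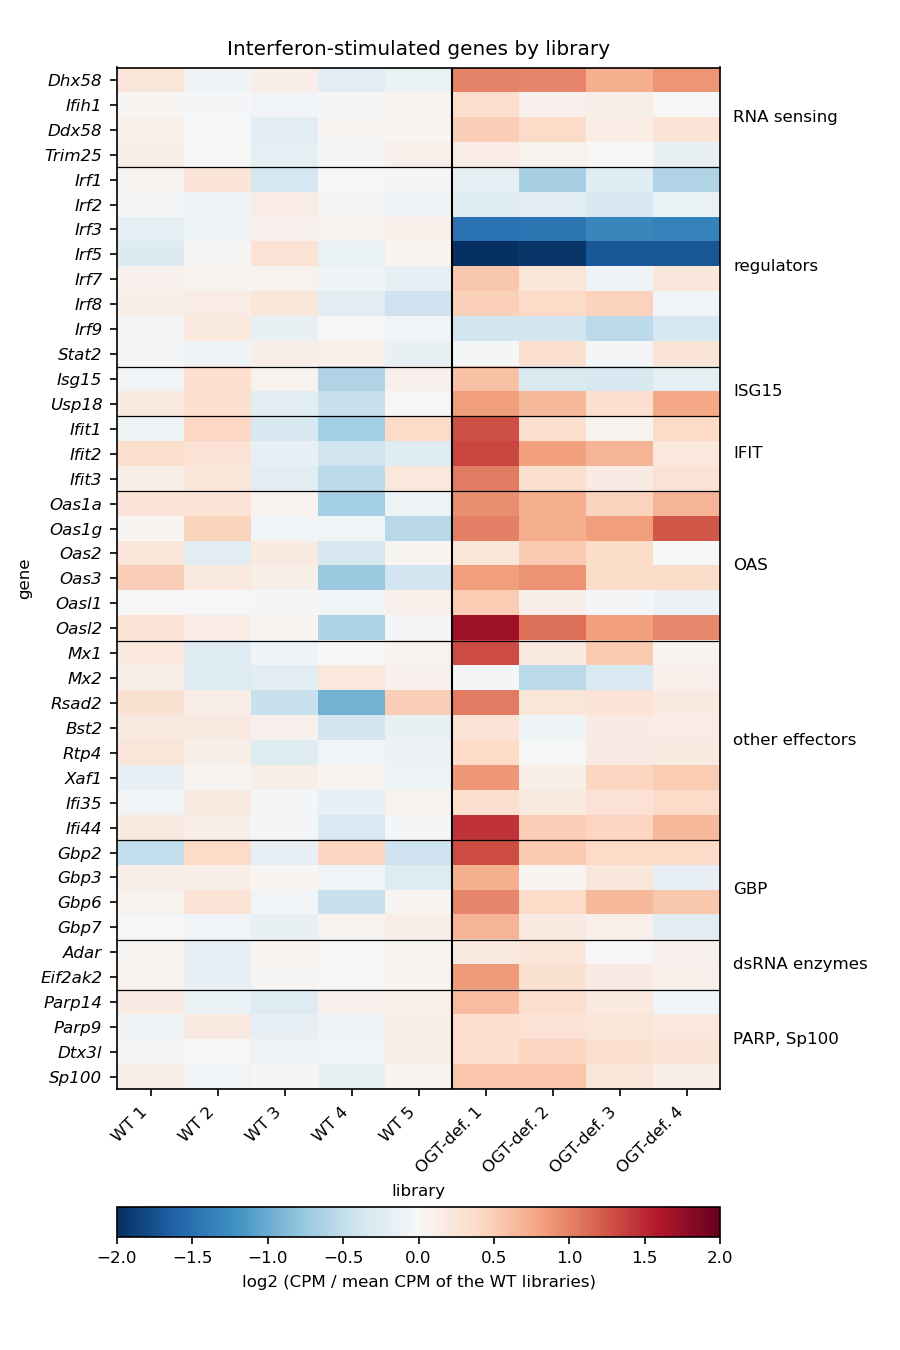
Level of each of the 41 genes (rows, by role) in each library (columns), as log2 of CPM over the mean CPM of the 5 WT libraries. Irf3 and Irf5 are uniformly blue in the 4 OGT-deficient libraries, and OGT-deficient 1 has the darkest red in all rows of the IFIT and GBP blocks and in 3 of the 6 rows of the OAS block.

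The effector genes differed between the OGT-deficient mice. OGT-deficient 1 was the highest of the 9 libraries for 25 of the 33 members other than regulators (75.8%), against 17.8% of all tested genes. OGT-deficient 2 was the highest for 5, OGT-deficient 4 for 2 and WT 4 for 1. The median of log2 CPM over the WT mean for the 33 genes was 0.72, 0.32, 0.25 and 0.20 in OGT-deficient 1 to 4 and between -0.10 and 0.12 in WT. Thus all 4 OGT-deficient medians lay above all WT medians. The regulators did not follow this order, with medians of -0.21, -0.31, -0.29 and -0.24 in OGT-deficient 1 to 4.

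Without OGT-deficient 1, 14 members rose and 5 fell, against 28.8% and 28.7% of tested genes, and the median over the 33 members other than regulators was 0.26. The calls of Ifit3 (log2 change 0.24, adjusted p = 0.193), Oas3 (0.54, adjusted p = 0.0886), Mx1 (0.26, adjusted p = 0.251), Gbp2 (0.41, adjusted p = 0.115) and Eif2ak2 (0.18, adjusted p = 0.101) were lost, and Ifi44 kept its call at a lower fold change of 0.50. Oasl2 (0.94) and the 13 other rises kept theirs. The same 5 calls were also lost without other libraries: Ifit3 lost its call without WT 3 and without WT 4, Oas3 without WT 4, WT 5 or OGT-deficient 2, Gbp2 without WT 5, Eif2ak2 without WT 2, and Mx1 without WT 2, WT 3, WT 4, WT 5 or OGT-deficient 3.

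**Figure D4:**
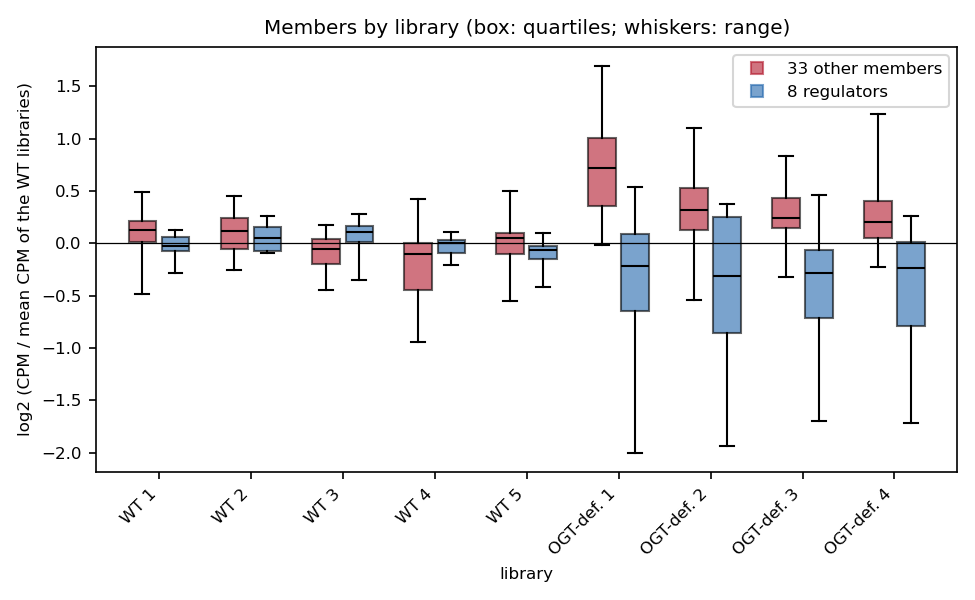
Distribution over genes of log2 CPM relative to the WT mean in each library, for the 33 members other than regulators (red) and the 8 regulators (blue); boxes are quartiles with the median, whiskers the range. The red median is 0.72 in OGT-deficient 1 and 0.20 to 0.32 in the other OGT-deficient libraries, and the blue medians there are -0.31 to -0.21.

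Marker lists of other cell types differed in direction and in which library was highest. Their counts of calls stand beside 31.6% of all tested genes that rose and 29.4% that fell. Summed monocyte and macrophage markers stood at 153.8 to 201.5 CPM among WT and 164.7 to 271.1 CPM among OGT-deficient livers, highest in OGT-deficient 2. Most of the sum was Csf1r (means 86.4 and 93.5 CPM) and Lyz2 (66.9 and 74.2 CPM), which were not called, so it mainly follows these. Of the 10 markers 7 were called higher. Ccr2, Cx3cr1, Gpnmb and Trem2 were highest in OGT-deficient 3, Cd14 in OGT-deficient 1, and Itgam and Cd68 in OGT-deficient 2. Among the 7 is Gpnmb, with 2 to 23 counts in WT and 210 to 668 counts in OGT-deficient libraries. It passed the filter on low counts through the latter, where it is high, so its call is a description and no test. Conventional dendritic cell markers summed to 7.87 to 9.73 CPM among WT and 10.4 to 17.7 CPM among OGT-deficient livers (3 of 6 higher, 1 lower), highest in OGT-deficient 1. Itgax (means 1.43 and 5.95 CPM), Xcr1 and Cd209a were called higher. Zbtb46 was called lower, and Clec9a (2.49 and 2.51 CPM) and Flt3 were not called. Itgax was the largest part of the sum in OGT-deficient 1 (8.33 CPM). Cd209a, with 1 to 20 counts in WT, also passed the filter through the OGT-deficient libraries, so its call is a description. Plasmacytoid dendritic cell markers summed to 16.3 to 21.0 and 20.6 to 30.8 CPM (1 of 5 tested higher), also highest in OGT-deficient 1. The sum was mostly Tcf4 (14.4 to 18.4 and 18.2 to 26.4 CPM), which was also the 1 called. Siglech, Ccr9, Klk1 and Pacsin1 averaged at most 1.17 CPM in either group and were not called, so the sum mainly follows Tcf4. Kupffer cell markers summed to 888.6 to 1193 and 758.7 to 1260 CPM, with 3 of 12 higher and 3 lower. T and NK cell markers summed to 5.81 to 7.31 and 6.10 to 7.66 CPM with 0 of 9 tested called by edgeR (1 lower at an unadjusted p under 0.05, 1 lower by DESeq2 and 0 by voom). B and plasma cell markers summed to 5.06 to 7.82 and 4.03 to 8.06 CPM with 1 of 6 higher and 1 lower. Neutrophil markers summed to 3.73 to 7.58 and 3.75 to 12.8 CPM, highest in OGT-deficient 3, with 2 of 4 tested higher by edgeR and by DESeq2 and 0 by voom. Endothelial markers summed to 330.1 to 456.0 and 209.5 to 391.7 CPM, with 1 of 7 higher and 2 lower. Stellate cell (163.8 to 274.3 and 499.3 to 553.5 CPM, 6 of 7 higher) and bile duct markers (30.8 to 59.0 and 141.5 to 244.3 CPM, 6 of 6 higher) lay apart, and of 8 hepatocyte markers 5 were lower and 1 higher. No marker averaged under 0.1 CPM in both groups. The part of these shifts in the changes of the interferon genes was not tested.

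The rest of the pathway was read from 96 further genes, of which 86 were tested, 33 rose (38.4%) and 15 fell (17.4%), beside 31.6% and 29.4% of all tested genes. The 55.8% called in either direction lay below the 61.1% of all tested genes. Among the 33 is Ifnlr1, which is given below without a test. Interferon transcripts themselves were at the limit of detection. Of 10 interferon genes, 7 had a count of 0 in all 9 libraries, which for uniquely aligned reads allows up to 0.0572 to 0.104 CPM per library. Of these 7, Ifna1, Ifna2, Ifna5, Ifnl2 and Ifnl3 have 12.2 to 67.4% of their 50-base stretches in another gene, so reads from them can be missing from the counts and their zeros are uncertain. Ifng had 16 counts over the WT and 8 over the OGT-deficient libraries, Ifnk 7 and 7, and Ifnb1 0 and 2, both in OGT-deficient 1. These counts cannot show a difference at this depth.

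Of 6 receptor genes 2 rose (33.3%) and 2 fell (33.3%), beside 31.6% and 29.4% of all tested genes. Ifnar2, the chain that binds type I interferon and STAT2, read 86.0, 95.9, 82.7, 90.9 and 86.8 CPM in the 5 WT livers and 51.3, 53.5, 54.4 and 57.3 CPM in the 4 OGT-deficient livers, without overlap (log2 change -0.71 with SE 0.07, adjusted p = 4.58e-06). Its partner Ifnar1, chosen with its values known, stood at 57.2 and 53.6 CPM and did not pass the test (-0.09, adjusted p = 0.299). Ifnlr1, the specific chain of the interferon lambda receptor, measured 0.171, 0.126, 0.0561, 0.208 and 0.298 CPM in WT, from 2 to 10 counts, and 3.14, 2.14, 2.61 and 1.40 CPM in OGT-deficient liver, from 57 to 149 counts. It passed the filter on low counts through the OGT-deficient libraries, where it is high, so its log2 change of 3.77 is a description and no test is given. Its place among the 2 receptor genes that rose is likewise a description. Il10rb, the chain it shares with interleukin receptors, rose from 9.88 ± 1.20 to 18.6 ± 2.001 CPM (0.91). Ifngr2, of the interferon gamma receptor, fell by 0.25 on the log2 scale (adjusted p = 0.0408), a call lost with upper-quartile scaling (-0.13, adjusted p = 0.276) and on leaving out any library other than WT 3, WT 4 or OGT-deficient 2. Of 4 kinase and transcription factor genes below the receptors, Tyk2 fell from 38.9 ± 3.09 to 26.6 ± 2.53 CPM (-0.55, adjusted p = 0.000170) and Jak1, Jak2 and Stat3 did not pass the test (log2 fold changes 0.09, -0.15 and 0.09). That is 25.0% called, beside 61.1% of all tested genes.

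Among 18 sensing and adaptor genes 10 rose (55.6%) and 6 fell (33.3%), beside 31.6% and 29.4% of all tested genes. Adaptors were among both. Mavs, the mitochondrial adaptor of RIG-I and MDA5, read 126.4, 107.8, 136.6, 120.5 and 110.8 CPM in the 5 WT livers and 38.7, 56.7, 46.1 and 50.6 CPM in the 4 OGT-deficient livers, without overlap (log2 change -1.33 with SE 0.12, adjusted p = 1.10e-06). Ticam1, the gene of the Toll-like receptor adaptor TRIF, fell from 17.5 ± 2.84 to 10.04 ± 1.20 CPM (-0.80), and Myd88, with 11.3% of its exonic bases under other genes, fell by 0.35 and Traf6 fell by 0.24 on the log2 scale, the latter not with upper-quartile scaling (-0.11, adjusted p = 0.222) nor without WT 4 or OGT-deficient 3. The 5 rises with the smallest p were Samhd1, a nucleotide hydrolase gene (25.8 ± 1.39 to 51.6 ± 4.10 CPM), the Z-nucleic acid sensor gene Zbp1 (1.33), the DNA sensor gene Mb21d1, which encodes cGAS (0.643 ± 0.277 to 2.73 ± 0.288 CPM, 2.11), the adaptor gene Traf3 (0.51) and the kinase gene Ikbke (0.44). Trex1 (-0.48) lies wholly within exons of Atrip and is uncertain. Of 10 negative regulators Nlrx1 alone passed the test, downward (-0.38, adjusted p = 0.00419).

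Of 48 other interferon-stimulated genes 21 rose (43.8%) and 5 fell (10.4%), beside 31.6% and 29.4% of all tested genes. Their median change was 0.27 on the log2 scale, beside 0.02 over all tested genes. The 5 rises with the smallest p were the immunoproteasome genes Psmb9 (26.1 ± 2.98 to 72.1 ± 4.63 CPM, log2 change 1.47) and Psmb8 (1.16), the mitochondrial protein gene Ifi27 (1.03), the ISG15 ligase gene Herc6 (0.84) and the peptide transporter gene Tap1 (0.72). The falls were Cxcl11, a chemokine gene (1.32 ± 0.299 to 0.538 ± 0.120 CPM, -1.29), Trim14 (-0.72, with 50.2% of its 50-base stretches in another gene and uncertain), the immunoproteasome gene Psmb10 (-0.35), the GTPase gene Iigp1 (-0.32) and the membrane protein gene Ifitm3 (-0.29). Cxcl11 is annotated as a polymorphic pseudogene. The OGT-deficient values of Psmb8 and Psmb9 lay wholly above WT, and those of Psmb10 overlapped it. With upper-quartile scaling 25 of the 48 genes rose and 2 fell. The calls of Psmb10 (-0.22, adjusted p = 0.0993), Iigp1 (-0.19, adjusted p = 0.125) and Ifitm3 (-0.17, adjusted p = 0.158) were lost there, and Ifitm3 lost its call also without WT 3 or OGT-deficient 3.

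**Figure D5:**
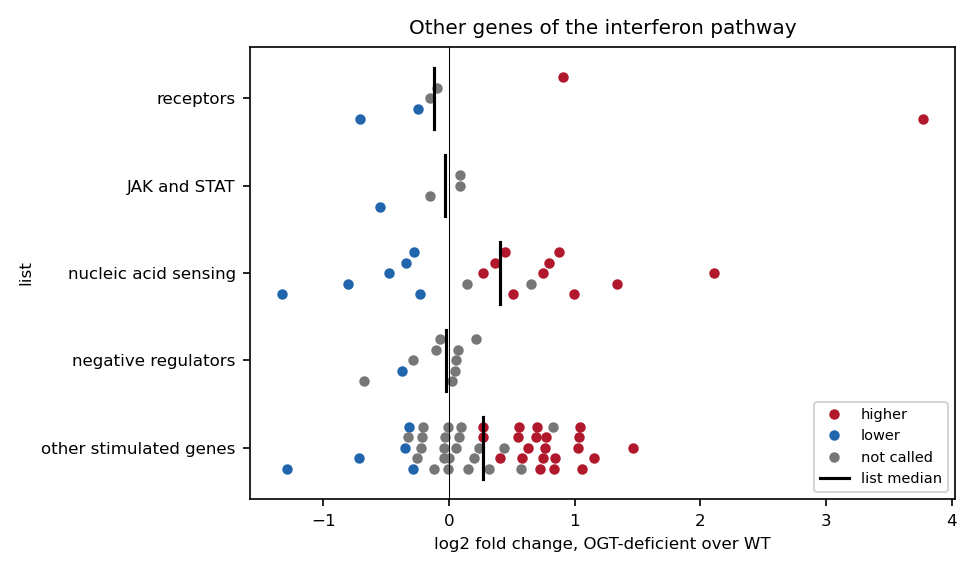
Log2 fold change of each tested gene of 5 further lists of the interferon pathway (rows), red where it rose, blue where it fell and grey where it did not pass the test; black bars are list medians. Mavs lies farthest left at -1.33 in the sensing row, and the point farthest right is Ifnlr1, near the limit of detection in WT.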

How the data were processed

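The tools named by the submitters' processing notes are TopHat2 2.1.0 and HTSeq 0.9.1, and the build is mm10 (GRCm38). The authors deposited a whole-number read count for each gene symbol and library, without normalization. No source used here states the annotation release or the strand setting, so sense and antisense reads cannot be told apart. The 5 summary lines (reads outside genes were 8.95 to 10.7% of uniquely aligned reads) stayed out of library sizes and tests. The design text names as many mice as libraries, so a library was taken as a mouse. Of 16 pairs of libraries within groups none agreed within sampling noise (chi-square per degree of freedom 23.9 to 135.0).

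Tests used edgeR 4.0.16 under R 4.3.3 (filterByExpr, TMM scaling, quasi-likelihood F test on group, Benjamini-Hochberg over 14104 genes, threshold 0.05). The code was also run on simulated counts in which few genes changed, about as often up as down. That run cannot check the scaling in these data, where 61.1% of tested genes were called. The alternatives were other scalings and filters, DESeq2 1.42.0, limma 3.58.1 (voom), the replicate number as a block and leaving out each library. Members and lists were chosen with earlier results of these data known, so no test was made over them. Every member is named, and of each further list up to 5 genes with the smallest p in each direction. CPM in every library was fixed for members that fell or changed by a log2 fold change of at least 1, and was given for others after their values were seen. Coordinates are 1-based, from GENCODE mouse release M21 (GRCm38). Promoter windows are from RefSeq (GRCm38.p6). Genes with over 10% of their 50-base stretches in another listed gene are given as uncertain. Some items are not reported here.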

Additional observations from a re-analysis of the deposited data

Results flagged for a closer look

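In 158 groups of libraries tested for a value far from the others (chance flags about 1 in 20), 10 values stood out, 5 of them the high value of OGT-deficient 1. These were Rsad2 at 30.0 CPM (nearest 17.6), Isg15 at 17.8 CPM (nearest 10.6), Gbp2 at 14.4 CPM (nearest 8.44), Ifit3 at 35.8 CPM (nearest 21.9) and Ifi44 at 14.5 CPM (nearest 8.30), each compared with the other OGT-deficient libraries. Samhd1 was high in OGT-deficient 2 at 57.7 CPM. Among WT libraries, Oasl1 was high in WT 5 at 15.8 CPM. Adar and Eif2ak2 were low in WT 2, at 32.8 and 20.1 CPM, and Ikbke was low in WT 4 at 16.0 CPM.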

How the results depend on the processing

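Of the 24 member calls, 17 were kept in all 16 alternatives, 14 of the rises and 3 of the falls (Irf3, Irf5 and Irf9). With upper-quartile factors 3 members and 9 of the further pathway genes fell, in place of 5 and 15, and this scaling moves every gene upward by its shift of the median. Leaving out each library in turn gave 14 to 22 members that rose and 4 to 5 that fell. The sign of genes near 0 changed. Isg15 was at 0.12 with upper-quartile factors, 0.028 with a filter of CPM 1 in 4 libraries, 0.0091 with the replicate block and -0.28 to 0.097 on leaving out a library. Leaving out a library put Trim25 at -0.037 to 0.060, Oasl1 at -0.017 to 0.20 and Stat3 at -0.0055 to 0.14. Ifnar1 was at 0.026 with upper-quartile factors. DESeq2 gained the call of Ifit1. Voom lost the calls of Ifit3 and Mx1. The replicate numbers share no source in the labels, and same-numbered libraries deviated with correlations of -0.103 to 0.104, so they were not taken as pairs. The fit with the replicate block gave 20 members that rose and 4 that fell and lost the calls of Irf2 and Gbp2 and gained those of Ifit1 (0.69, adjusted p = 0.0283) and Rsad2 (0.66, adjusted p = 0.00595), and 1 of 4 OGT-deficient libraries correlated best with its own number. Having 4 or 5 libraries a group, and low levels (Oas3, Mx1, Ifnlr1 in WT) limit the precision.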
